A study of Mus musculus with 12 samples.

Results

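Cadherins with a Cdh number and the protocadherins that stand outside the large Pcdha, Pcdhb and Pcdhg clusters were followed in hippocampus and cortex of mouse embryos at E18.5, late in gestation. A gene was taken where its mouse symbol was Cdh or Pcdh followed by a number, with Pcdh11x included, which gave 35 of the 22667 gene IDs in the deposited tables. They were 5 type I cadherins, 13 type II cadherins, 5 other cadherins, 4 delta-1 protocadherins, 5 delta-2 protocadherins and 3 other protocadherins. The groups were hippocampus of Srrm4 KO embryos, hippocampus of wild type control embryos, cortex of Srrm4 KO embryos and cortex of wild type control embryos, with 2 libraries each. Srrm4, also named nSR100, is a splicing regulator of neurons. Its KO allele lacked exons 7 and 8, excised from the nSR100lox allele by a Cre transgene under a CMV promoter, which is active in most tissues, so the deletion was not limited to neurons. The nSR100lox mice came from 2 EUCOMM stem cell clones aggregated with outbred ICR morulae and were kept on a C57Bl/6N background. The labels do not say whether the controls carried Cre or were littermates, nor whether libraries came from separate embryos. A p-value here therefore reflects how far the deposited libraries spread, which may in part be technical.

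Cadherins are membrane proteins that bind calcium and join cells by contacts between their extracellular domains. Classical cadherins of types I and II link through catenins to actin, and the type II genes are known for restricted patterns across brain areas and neuron classes, where cells with a matching set tend to adhere. Delta-protocadherins adhere more weakly, and their cytoplasmic parts bind phosphatase or actin regulators. In the embryonic forebrain the family is known for its part in sorting cells, guiding axons and forming synapses.

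The sum of the 35 members was 306 to 331 RPKM in the 4 hippocampus libraries and 411 to 456 RPKM in the 4 cortex libraries, where RPKM is the authors' read count scaled by gene length and library total. Of the 34 members that passed the filter on low counts, 21 were lower in hippocampus than in cortex over both genotypes, against 25.0% of all genes tested, and 5 were higher, against 29.0%. Of the 5, Pcdh20 alone was also called higher by DESeq2. Pcdh20 ran 3.93-fold higher in hippocampus, while Cdh18, Pcdh11x, Cdh6, Pcdh10 and Cdh13 ran 3.83-fold to 6.20-fold lower. Between KO and control no member passed the test in either tissue.

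Library totals ran from 58210499 to 140052443 counts, and a floor of 3 counts stood for 0.0214 to 0.0515 counts scaled to the library total (CPM). Srrm4 checked the labels, at 5.68 and 6.16 RPKM in hippocampus KO, 26.0 and 27.9 RPKM in hippocampus control, 8.12 and 6.97 RPKM in cortex KO, and 25.2 and 24.2 RPKM in cortex control. The count covers the whole gene and not the deleted exons alone. Of the region markers, Prox1 and Zbtb20, which mark hippocampal granule and pyramidal cells, were called higher in hippocampus. The 10 hippocampus markers, of which 5 were called higher and 4 lower, summed to 2110 to 2497 CPM in hippocampus and 660.5 to 733.3 CPM in cortex. The 8 cortex markers, 1 called higher and 7 lower in hippocampus, summed to 1063 to 1188 CPM in hippocampus and 2037 to 2121 CPM in cortex. Hippocampus KO replicate 1 held 4.40% of its counts in mitochondrial genes, against 3.14% to 3.44% elsewhere. Hippocampus control replicate 2 stood apart in choroid plexus markers, which summed to 207.9 CPM there, to 28.2 to 47.8 CPM in the other hippocampus libraries and to 6.42 to 13.2 CPM in cortex. Y-linked genes summed to 0.41 and 0.32 CPM in replicate 2 of the KO groups, to 148.1 and 144.1 CPM in replicate 2 of the control groups, and to 25.4 to 49.8 CPM in all replicate 1 libraries.

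Levels spanned a wide range within the family. Of the 35 members, 27 reached a mean of at least 1 RPKM in some group, 19 reached 5 RPKM, 14 reached 10 RPKM, 7 reached 20 RPKM and Cdh2 alone reached 50 RPKM. Cdh2 took 29.3 to 30.8 percent of the family's summed RPKM in hippocampus libraries and 22.6 to 24.7 percent in cortex libraries. In both hippocampus groups the order of mean RPKM began with Cdh2, Cdh11 and Pcdh8. In the cortex groups it began with Cdh2, Cdh13, Cdh4, Pcdh8 and Cdh8 in KO and with Cdh2, Cdh13, Cdh4, Cdh11 and Pcdh10 in controls. Neighbours in these orders, such as Cdh11 at 28.0 ± 0.778 RPKM and Pcdh8 at 27.4 ± 6.22 RPKM in hippocampus KO (mean ± SD, n = 2), often lay within their spread.

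**Figure D1:**
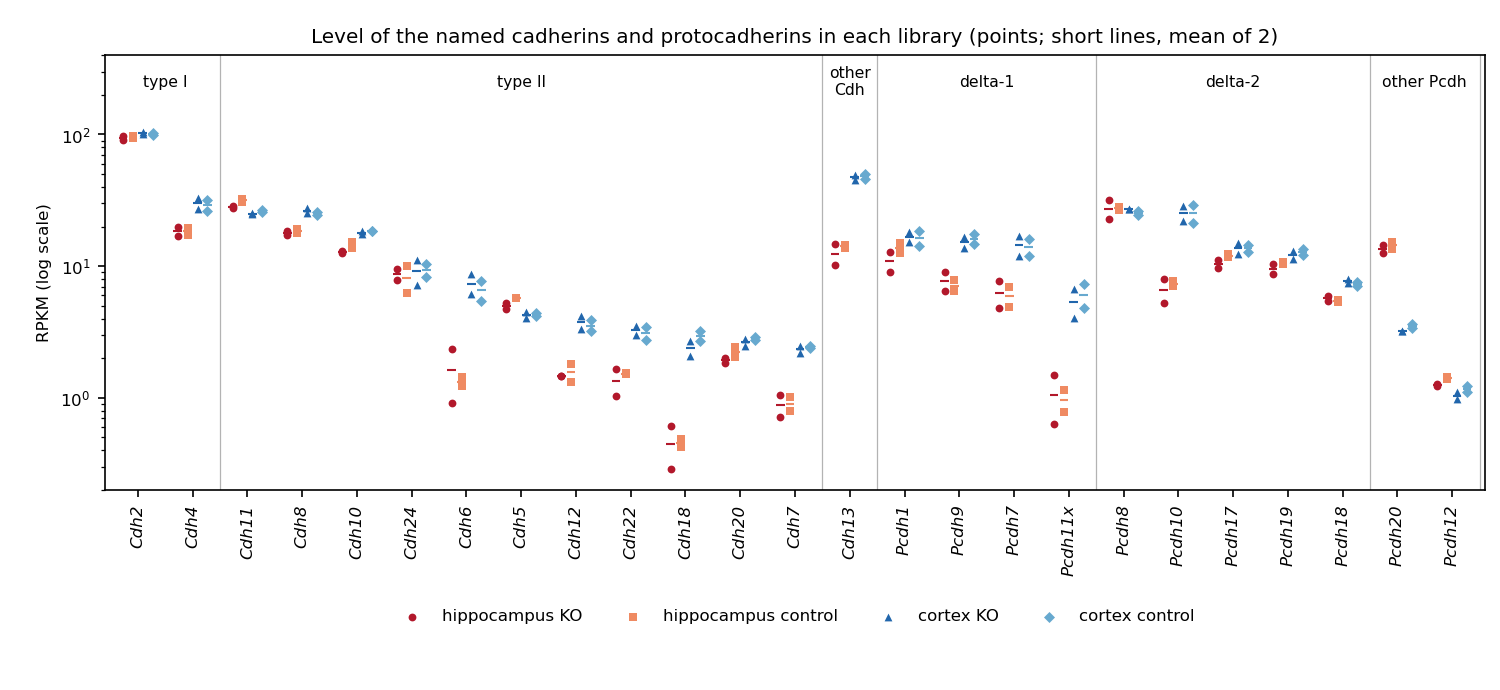
RPKM on a log scale of the 25 named members in each of the 8 libraries, by subfamily, with short lines for the mean of the 2 libraries of a group. Cdh2 sits near 100 RPKM in every library, Pcdh20 is the member whose hippocampus points lie far above its cortex points, and the hippocampus points of Cdh6, Cdh13, Cdh18, Pcdh10 and Pcdh11x lie far below their cortex points.

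The first comparison asked how the family differs between the regions. Over both genotypes 26 of 34 members passed, against 54.1% of all 16111 genes tested. The number called higher was 1 with DESeq2 and without hippocampus control replicate 1, cortex KO replicate 2 or cortex control replicate 1. The median log2 fold change, hippocampus over cortex, was -0.50 over the members and 0.024 over all genes. After TMM scaling, all 4 hippocampus libraries lay beyond all 4 cortex libraries for 22 of 34 members, against 50.9% of all genes. Hippocampus RNA from these bulk samples can hold less of a transcript because fewer cells of a type are present or because each cell holds less, and the 2 cannot be told apart. Markers of neighbouring tissue and of several cell types also differed between the regions, and none of them was at 0 in any library. The 7 striatum markers, such as Ppp1r1b, were all called lower and summed to 23.3 to 28.4 CPM in hippocampus and 238.5 to 262.3 CPM in cortex, with none at 0. The 8 interneuron markers were also all called lower, at 267.8 to 386 CPM summed in hippocampus and 641.7 to 689.2 CPM in cortex. Of the oligodendrocyte lineage markers 4 of 5 were lower, at 107.7 to 140.2 CPM summed in hippocampus and 171.9 to 200.1 CPM in cortex. The 6 Cajal-Retzius markers were all called higher, with a median log2 fold change of 1.99, and summed to 1364 to 1860 CPM in hippocampus and 524.3 to 670.9 CPM in cortex. The 6 microglia markers were all higher too, at 72.38 to 94.96 CPM summed in hippocampus and 39.76 to 50.47 CPM in cortex. Of the 6 radial glia markers 4 were higher, at 1944 to 2329 CPM summed in hippocampus and 1130 to 1201 CPM in cortex. The part of these cell types in the members' differences was not tested.

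Among the type I cadherins, Cdh2 and Cdh4 carried nearly all of the RNA. Cdh2, N-cadherin of neuroepithelial junctions and synapses, had 91.1 and 97.2 RPKM in hippocampus KO, 97 and 94.9 in hippocampus control, 105 and 101 in cortex KO, and 102 and 99.3 in cortex control. The hippocampus libraries were all a little below the cortex libraries, a difference that passed at 1.14-fold lower (log2 fold change -0.19, SE 0.056, edgeR adjusted p = 0.0172). That call was lost with either limma fit (adjusted p = 0.0554 and 0.063) and without hippocampus control replicate 2, cortex KO replicate 1 or cortex control replicate 1, at adjusted p = 0.0551 to 0.0592. Cdh4, R-cadherin, had 19.8 and 16.9 RPKM in hippocampus KO, 19.6 and 17.2 in hippocampus control, 33.2 and 26.9 in cortex KO, and 31.6 and 26.4 in cortex control. It was 1.71-fold lower in hippocampus with no overlap between the regions (log2 fold change -0.78, SE 0.10, edgeR adjusted p = 0.000159), and replicate 1 was the higher library in all 4 groups. Cdh15, known from muscle, stayed under 1 RPKM throughout, with 0.32 and 0.34 RPKM in hippocampus KO, 0.41 and 0.43 in hippocampus control, 0.67 and 0.65 in cortex KO, and 0.75 and 0.72 in cortex control, and was 2.00-fold lower in hippocampus (log2 fold change -1.0, SE 0.10, edgeR adjusted p = 3.03e-05).

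Of the 13 type II cadherins, 8 were lower in hippocampus and 2 higher, against 25.0% and 29.0% of all genes. Cdh18 had 0.61 and 0.29 RPKM in hippocampus KO, 0.42 and 0.49 in hippocampus control, 2.71 and 2.07 in cortex KO, and 3.21 and 2.71 in cortex control. It was the member with the largest fall, 6.20-fold lower in hippocampus (log2 fold change -2.63, SE 0.20, edgeR adjusted p = 5.60e-06). Cdh6, K-cadherin, had 2.35 and 0.92 RPKM in hippocampus KO, 1.44 and 1.22 in hippocampus control, 8.65 and 6.11 in cortex KO, and 7.76 and 5.45 in cortex control. It lay 4.97-fold lower in hippocampus (log2 fold change -2.31, SE 0.26, edgeR adjusted p = 6.55e-05), and its highest hippocampus value came from KO replicate 1, the library with the high mitochondrial share. Without that library the log2 fold changes were -2.63 for Cdh6 and -2.91 for Cdh18, so both stayed called. Cdh7 had 1.05 and 0.72 RPKM in hippocampus KO, 0.79 and 1.01 in hippocampus control, 2.47 and 2.21 in cortex KO, and 2.48 and 2.39 in cortex control, which made it 2.85-fold lower in hippocampus (log2 fold change -1.51, SE 0.12, edgeR adjusted p = 7.49e-06). Cdh12 had 1.46 and 1.46 RPKM in hippocampus KO, 1.81 and 1.32 in hippocampus control, 4.18 and 3.31 in cortex KO, and 3.88 and 3.20 in cortex control. Its regions did not overlap, and it was 2.56-fold lower in hippocampus (log2 fold change -1.36, SE 0.13, edgeR adjusted p = 2.83e-05). Cdh22, first described in pituitary and brain, had 1.03 and 1.65 RPKM in hippocampus KO, 1.54 and 1.52 in hippocampus control, 3.53 and 3.0 in cortex KO, and 3.48 and 2.74 in cortex control, 2.39-fold lower in hippocampus (log2 fold change -1.26, SE 0.16, edgeR adjusted p = 0.000141).

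Cdh8, Cdh10 and Cdh20 showed smaller falls. Cdh8 had 17.2 and 18.6 RPKM in hippocampus KO, 17.9 and 19.3 in hippocampus control, 27.5 and 25.4 in cortex KO, and 24.6 and 26 in cortex control. It was 1.51-fold lower in hippocampus (log2 fold change -0.59, SE 0.057, edgeR adjusted p = 2.24e-05). Cdh10 had 13 and 12.6 RPKM in hippocampus KO, 15.1 and 13.7 in hippocampus control, 18.4 and 17.6 in cortex KO, and a mean of 18.55 ± 0.064 (SD, n = 2) in cortex control. It lay 1.43-fold lower (log2 fold change -0.51, SE 0.061, edgeR adjusted p = 8.73e-05). The regions did not overlap for either gene. Cdh20 had 2.02 and 1.85 RPKM in hippocampus KO, 2.43 and 2.05 in hippocampus control, 2.82 and 2.48 in cortex KO, and 2.92 and 2.75 in cortex control, a 1.40-fold lower level in hippocampus (log2 fold change -0.49, SE 0.093, edgeR adjusted p = 0.00173). In controls alone its call was close to the threshold. The adjusted p was 0.0492 with all libraries and 0.0561 to 0.294 without either hippocampus KO library, hippocampus control replicate 2 or either cortex control. It was 0.0788 and 0.0936 with limma, 0.0555 with the filter at 1 RPKM and 0.0508 with the control libraries fitted alone. In KO alone it was lost without hippocampus KO replicate 2 or cortex KO replicate 1, at 0.0528 and 0.083.

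Cdh11 and Cdh5 were the type II genes called higher in hippocampus, both by little. Cdh11, OB-cadherin of mesenchymal cells and neurons, had 27.4 and 28.5 RPKM in hippocampus KO, 30.8 and 32.4 in hippocampus control, 25.4 and 24.7 in cortex KO, and 25.6 and 26.6 in cortex control. Every hippocampus library lay above every cortex library in RPKM, though the KO libraries of the regions overlapped after TMM scaling. Over both genotypes it was 1.09-fold higher in hippocampus (log2 fold change 0.13, SE 0.048, edgeR adjusted p = 0.0486). The call was lost with DESeq2 (adjusted p = 0.146), with another scaling (0.122), with no filter on low counts (0.0794) and without any of the 6 libraries other than hippocampus KO replicate 1 and cortex KO replicate 1, at 0.0996 to 0.155. Cdh5, VE-cadherin of endothelial junctions, had 4.70 and 5.22 RPKM in hippocampus KO, 5.77 and 5.69 in hippocampus control, 4.50 and 4.05 in cortex KO, and 4.38 and 4.20 in cortex control, which was 1.17-fold higher in hippocampus (log2 fold change 0.22, SE 0.078, edgeR adjusted p = 0.0363). It too was lost with DESeq2 (adjusted p = 0.0595) and another scaling (0.0702), and without any of the same 6 libraries, at 0.0838 to 0.117.

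Endothelial markers were set beside Cdh5. Of the 12 listed, 7 were higher in hippocampus over both genotypes, against 29.0% of all genes, and none was lower. The lowest log2 fold change, which did not pass, was that of Flt1, a receptor of vascular growth factor, at -0.0735 (SE 0.159). Their sum was 265.6 to 323.9 CPM in hippocampus and 203.4 to 243.9 CPM in cortex, with none at 0. Kdr, another such receptor, and Ramp2 had log2 fold changes of 0.66 (SE 0.059, edgeR adjusted p = 1.51e-05) and 0.83 (SE 0.11, edgeR adjusted p = 0.000181). Pcdh12, the other endothelial member, had 1.23 and 1.27 RPKM in hippocampus KO, 1.39 and 1.43 in hippocampus control, 1.10 and 0.98 in cortex KO, and 1.24 and 1.10 in cortex control. It did not pass (log2 fold change 0.17, SE 0.079, edgeR adjusted p = 0.0983), though both limma fits called it higher (adjusted p = 0.0130 and 0.0288). Meningeal markers, from the fibroblast layers that cover the brain, were called higher in hippocampus for 7 of 9 and summed to 40.9 to 87.8 CPM in hippocampus and 12.7 to 15.3 CPM in cortex, with none at 0. The part of endothelial and meningeal RNA in the differences of Cdh5 and Cdh11 was not tested.

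Cdh24 and Cdh9 passed in neither genotype in the edgeR fit, which held no replicate term. Cdh24, which binds catenins, had 7.80 and 9.52 RPKM in hippocampus KO, 6.24 and 9.98 in hippocampus control, 7.23 and 11.1 in cortex KO, and 8.32 and 10.4 in cortex control. Replicate 2 was the higher library in all 4 groups, and the 95% interval of the log2 fold change was -0.60 to 0.14 (log2 fold change -0.23, SE 0.16, edgeR adjusted p = 0.261). Cdh9, known in mouse at synapses of dentate granule cells onto pyramidal cells, had 3.21 and 3.70 RPKM in hippocampus KO, 4.02 and 4.15 in hippocampus control, 3.61 and 3.63 in cortex KO, and 3.95 and 4.27 in cortex control, with a 95% interval of -0.29 to 0.032 (log2 fold change -0.13, SE 0.071, edgeR adjusted p = 0.155). Cdh19, of neural crest derived glia, stayed between 0.03 and 0.15 RPKM and did not pass.

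T-cadherin and the remaining cadherins were of very different abundance. Cdh13, T-cadherin, which is held by a lipid anchor and has no cytoplasmic part to bind catenins, had 14.6 and 10.2 RPKM in hippocampus KO, 13.8 and 14.6 in hippocampus control, 49.5 and 45.1 in cortex KO, and 50.2 and 46.1 in cortex control. It was second only to Cdh2 in cortex and eighth in both hippocampus groups, 3.83-fold lower in hippocampus (log2 fold change -1.94, SE 0.11, edgeR adjusted p = 7.02e-07). Its tissue difference was called under all 15 alternatives, with log2 fold changes from -2.02 to -1.78. Cdh23, a protein of the hair cell tip link, lay between 0.11 and 0.26 RPKM, 2.12-fold lower in hippocampus (log2 fold change -1.09, SE 0.10, edgeR adjusted p = 2.12e-05). Cdh1, E-cadherin of epithelia, held 3 to 51 counts a library, and Cdh17, of liver and intestine, held 3 to 25. Both were called higher in hippocampus (log2 fold change 1.64, SE 0.61, edgeR adjusted p = 0.0451 for Cdh1 and log2 fold change 0.85, SE 0.31, edgeR adjusted p = 0.0427 for Cdh17), and both calls were lost with DESeq2, at adjusted p = 0.0575 and 0.149, and without most single libraries. For Cdh1 these were both KO replicate 1 libraries, hippocampus control replicate 1, cortex KO replicate 2 and both cortex controls, at 0.0623 to 0.193. For Cdh17 they were all 4 hippocampus libraries, cortex KO replicate 2 and cortex control replicate 1, at 0.0525 to 0.149. Cdh3, P-cadherin, had 66 counts in hippocampus control replicate 2, the library with high choroid plexus markers, and 6 to 26 counts in the other 7. Cdh26 had 5 to 29 counts, and neither it nor Cdh3 passed. Cdh16, known from kidney, had 0 or 1 count in every library and was not tested.

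All 4 delta-1 protocadherins were called lower in hippocampus over both genotypes, against 25.0% of all genes, and 3 of the 4 in controls, against 14.9%. This subgroup has an additional extracellular repeat and a cytoplasmic motif that binds protein phosphatase 1. Pcdh11x, an X-linked gene, had 1.49 and 0.63 RPKM in hippocampus KO, 1.15 and 0.78 in hippocampus control, 6.72 and 4.05 in cortex KO, and 7.29 and 4.78 in cortex control. It was 5.92-fold lower in hippocampus (log2 fold change -2.57, SE 0.29, edgeR adjusted p = 6.70e-05), and replicate 1 exceeded replicate 2 by 1.47 to 2.37 times within every group. Pcdh7, NF-protocadherin, had 7.69 and 4.79 RPKM in hippocampus KO, 6.91 and 4.86 in hippocampus control, 16.9 and 12 in cortex KO, and 16 and 12 in cortex control. Its regions did not overlap, and it was 2.50-fold lower in hippocampus (log2 fold change -1.32, SE 0.19, edgeR adjusted p = 0.000310). In the mouse annotation an exon of Pcdh7 shares 2235 bases, its largest overlap, with an exon of 4932441J04Rik on the opposite strand. No source used here says whether the counting used strand, so reads in this overlap cannot be told apart. Smaller overlaps with other genes stood in Pcdh8 (436 bases), Pcdh10 (154), Cdh9 (129), Cdh12 (102, on the same strand), Pcdh19 (57) and Cdh8 (23). Pcdh9 had 9.03 and 6.45 RPKM in hippocampus KO, 7.80 and 6.45 in hippocampus control, 16.6 and 13.8 in cortex KO, and 17.4 and 14.7 in cortex control, 2.24-fold lower (log2 fold change -1.16, SE 0.13, edgeR adjusted p = 5.31e-05). Pcdh1 had 9.0 and 12.8 RPKM in hippocampus KO, 15 and 12.5 in hippocampus control, 18.1 and 15.2 in cortex KO, and 18.47 and 14.2 in cortex control. Its regions overlapped in controls, and the difference of 1.44-fold (log2 fold change -0.52, SE 0.15, edgeR adjusted p = 0.0167) was lost without cortex control replicate 1 (adjusted p = 0.058).

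The 5 delta-2 protocadherins share a motif that recruits the WAVE complex, a regulator of branched actin, in those members where it has been studied. Pcdh10, OL-protocadherin, had 7.99 and 5.21 RPKM in hippocampus KO, 7.70 and 7.04 in hippocampus control, 28.8 and 22.1 in cortex KO, and 29.2 and 21.4 in cortex control. It was 3.88-fold lower in hippocampus (log2 fold change -1.96, SE 0.16, edgeR adjusted p = 8.40e-06), far beyond the spread within the groups. Pcdh18, a partner of the reelin adaptor Dab1, had 5.96 and 5.42 RPKM in hippocampus KO, 5.54 and 5.33 in hippocampus control, 7.97 and 7.44 in cortex KO, and 7.55 and 7.13 in cortex control. It was 1.44-fold lower with no overlap (log2 fold change -0.53, SE 0.058, edgeR adjusted p = 5.79e-05). Pcdh19, an X-linked gene whose human form is mutated in a female-limited epilepsy, had 8.75 and 10.4 RPKM in hippocampus KO, 10.4 and 10.7 in hippocampus control, 13.1 and 11.3 in cortex KO, and 13.5 and 12.1 in cortex control. It was 1.33-fold lower in hippocampus (log2 fold change -0.41, SE 0.080, edgeR adjusted p = 0.00197). In controls alone its call, at adjusted p = 0.0472, was lost without any 1 of the 4 control libraries, at 0.0683 to 0.273, and with another scaling, the filter at 1 RPKM or limma, at 0.0514 to 0.111. In KO alone, at 0.0168, it was lost without replicate 1 of either region, at 0.0955 to 0.119, and with limma on log2(RPKM + 1), at 0.0531. Pcdh17, which is known in mouse for its presynaptic part in corticostriatal circuits, had 9.72 and 11.2 RPKM in hippocampus KO, 12.3 and 11.7 in hippocampus control, 15 and 12.3 in cortex KO, and 14.5 and 12.8 in cortex control, 1.30-fold lower (log2 fold change -0.38, SE 0.094, edgeR adjusted p = 0.00747). Pcdh8, also named arcadlin, which in rat neurons is induced by activity and draws N-cadherin into the cell, had 23 and 31.8 RPKM in hippocampus KO, 26.7 and 28.4 in hippocampus control, 27.3 and 27.2 in cortex KO, and 26.3 and 24.3 in cortex control. It did not pass, with a 95% interval of -0.24 to 0.19 (log2 fold change -0.026, SE 0.10, edgeR adjusted p = 0.836), and hippocampus KO held both its lowest and its highest library.

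Promoter sequence was a property that the choice of members had not used. The set shown is the 120 bases before the annotated start of the 5 delta-2 genes, which share a short motif while their regional log2 fold changes run from -1.96 to -0.026, of Pcdh20, the gene with the opposite regional difference, and of Cdh6 and Cdh18, both far lower in hippocampus. All are from RefSeq on build GRCm38.p6 and read 5′ to 3′ on the gene's strand. The windows lie at chr14:79771313-79771432 (minus strand) for Pcdh8, chr3:45378278-45378397 (plus strand) for Pcdh10, chr14:84443443-84443562 (plus strand) for Pcdh17, chr3:49757317-49757436 (minus strand) for Pcdh18, chrX:133688994-133689113 (minus strand) for Pcdh19, chr14:88471397-88471516 (minus strand) for Pcdh20, chr15:13173676-13173795 (minus strand) for Cdh6 and chr15:23036343-23036462 (plus strand) for Cdh18. Capitals mark the CCAAT motif, which appears as the letters ATTGG where it reads on the opposite strand.
Pcdh8: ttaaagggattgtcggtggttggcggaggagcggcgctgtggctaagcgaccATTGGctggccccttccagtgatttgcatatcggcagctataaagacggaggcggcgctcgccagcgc
Pcdh10: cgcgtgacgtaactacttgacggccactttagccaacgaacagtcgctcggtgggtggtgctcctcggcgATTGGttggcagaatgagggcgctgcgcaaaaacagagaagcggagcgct
Pcdh17: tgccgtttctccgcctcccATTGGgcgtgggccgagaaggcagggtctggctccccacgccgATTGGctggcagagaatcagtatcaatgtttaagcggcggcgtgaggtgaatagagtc
Pcdh18: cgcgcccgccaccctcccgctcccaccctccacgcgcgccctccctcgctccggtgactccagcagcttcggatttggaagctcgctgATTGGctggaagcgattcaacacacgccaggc
Pcdh19: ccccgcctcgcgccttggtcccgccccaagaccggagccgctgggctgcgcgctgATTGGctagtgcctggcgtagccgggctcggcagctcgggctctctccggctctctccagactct
Pcdh20: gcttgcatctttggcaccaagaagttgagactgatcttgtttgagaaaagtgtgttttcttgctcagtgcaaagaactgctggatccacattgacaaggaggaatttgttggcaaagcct
Cdh6: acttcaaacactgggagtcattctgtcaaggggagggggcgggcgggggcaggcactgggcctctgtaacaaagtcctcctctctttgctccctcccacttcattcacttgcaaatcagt
Cdh18: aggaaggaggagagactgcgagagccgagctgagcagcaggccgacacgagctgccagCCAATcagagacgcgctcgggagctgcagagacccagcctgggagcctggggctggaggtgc
The motif stood in all 5 delta-2 windows, as ATTGG each time, with its first base 32 to 101 bases before the start. It was in neither the Pcdh20 nor the Cdh6 window, although their regional differences run opposite ways, and it was in the Cdh18 window. The Pcdh20 promoter held it farther out, at position -185 relative to the start. The Pcdh20 window held 0 CpG pairs and 43.3% G and C, and the Cdh6 and Cdh18 windows 2 and 7 CpG pairs and 55.8% and 67.5%, against 9 to 13 CpG pairs and 59.2% to 72.5% in the delta-2 windows. The motif was not limited to the delta-2 genes. Of the 22 members with a window, 12 held it, and 7 of these were not delta-2 genes, namely Cdh7, Cdh8, Cdh9, Cdh18, Cdh20, Pcdh9 and Pcdh15. The 10 without it included Pcdh7, Cdh12 and Cdh22, which were lower in hippocampus. Of 32851 promoter windows of 120 bases in the same table, 21.3% held CCAAT on either strand, against 52.0% of the 25 windows found for these 22 members. The motif was picked after the sequences had been read, and the GC box letters GGGCGG, the TATA box letters TATAAA, the E-box letters CAGCTG and the homeodomain letters TAATTA were searched as well, on both strands. None of these motifs lies within another. They stood in 26.5%, 6.3%, 6.8% and 2.1% of all windows and in 20%, 8.0%, 0% and 4.0% of member windows. A match is a string of letters and was not tested as a bound site.

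Outside the delta subgroups, Pcdh20 ran opposite to most of the family. It had 12.6 and 14.6 RPKM in hippocampus KO, 15.3 and 13.6 in hippocampus control, 3.20 and 3.21 in cortex KO, and 3.38 and 3.63 in cortex control. Every hippocampus library lay far above every cortex library, 3.93-fold higher (log2 fold change 1.98, SE 0.071, edgeR adjusted p = 6.51e-08), and the fold was 3.94 in KO and 3.92 in controls. It was the only 1 of the 34 tested members called higher in KO, in controls and over both genotypes, and it stayed called under all 15 alternatives, with log2 fold changes from 1.78 to 2.03. Pcdh15, the partner of Cdh23 in the tip link, lay between 0.86 and 1.41 RPKM and did not pass (log2 fold change -0.31, SE 0.18, edgeR adjusted p = 0.164).

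The regional differences were then compared between genotypes, since the KO and the control contrasts share no library. In KO 20 members were lower and 1 higher in hippocampus, 21 of 34 in all, against 40.0% of all genes, 18.8% lower and 21.2% higher. In controls 18 were lower and 3 higher, again 21 of 34, against 33.9% of all genes, 14.9% lower and 19.0% higher. Of the 21 called in each genotype, 19 were shared, which is 90.5% of each list, and all 19 had the same direction. Over all genes, 77.2% of those called in KO were called in controls and 91.0% of those called in controls were called in KO, and every one called in both had the same direction. The log2 fold changes had the same sign for 31 of 34 members and for 87.9% of all genes, and their Pearson correlation across the members was 0.919, a description over genes of the same 8 libraries. Pcdh1 and Pcdh17 were called in KO only, and Cdh11 and Cdh5 in controls only, which does not show that they differ. The test of that difference gave an edgeR adjusted p of 1 for each, with log2 differences, KO minus control, of -0.40 (SE 0.29) for Pcdh1, -0.23 (SE 0.18) for Pcdh17, -0.15 (SE 0.091) for Cdh11 and -0.24 (SE 0.15) for Cdh5. In controls, the calls of Cdh11 and Cdh5 were lost with another scaling (adjusted p = 0.0812 and 0.0562) and without any 1 of the 4 control libraries (0.151 to 0.198 for Cdh11 and 0.0909 to 0.191 for Cdh5). That of Cdh11 was also lost with DESeq2 (0.105), with no filter on low counts (0.0801) and without either cortex KO library (0.0645 and 0.0695). In KO, the calls of Pcdh1 and Pcdh17 were lost without replicate 1 of either hippocampus KO or cortex KO, at adjusted p = 0.107 to 0.145. Without hippocampus KO replicate 1 or cortex control replicate 1, 1 library stood in that group. Fewer members and fewer of all genes then passed in that genotype. Without cortex control replicate 1, the calls in controls of Cdh4, Cdh5, Cdh11, Cdh20, Cdh22, Pcdh7 and Pcdh19 were lost, though no direction turned. Their log2 fold changes in controls were then -0.57, 0.40, 0.20, -0.34, -0.89, -1.075 and -0.26. Within replicate number 1 and within number 2, the 26 members called over both genotypes had the same sign, as did 8710 of the 8712 genes called. The calls came from the same libraries, so this count does not test them.

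**Figure D2:**
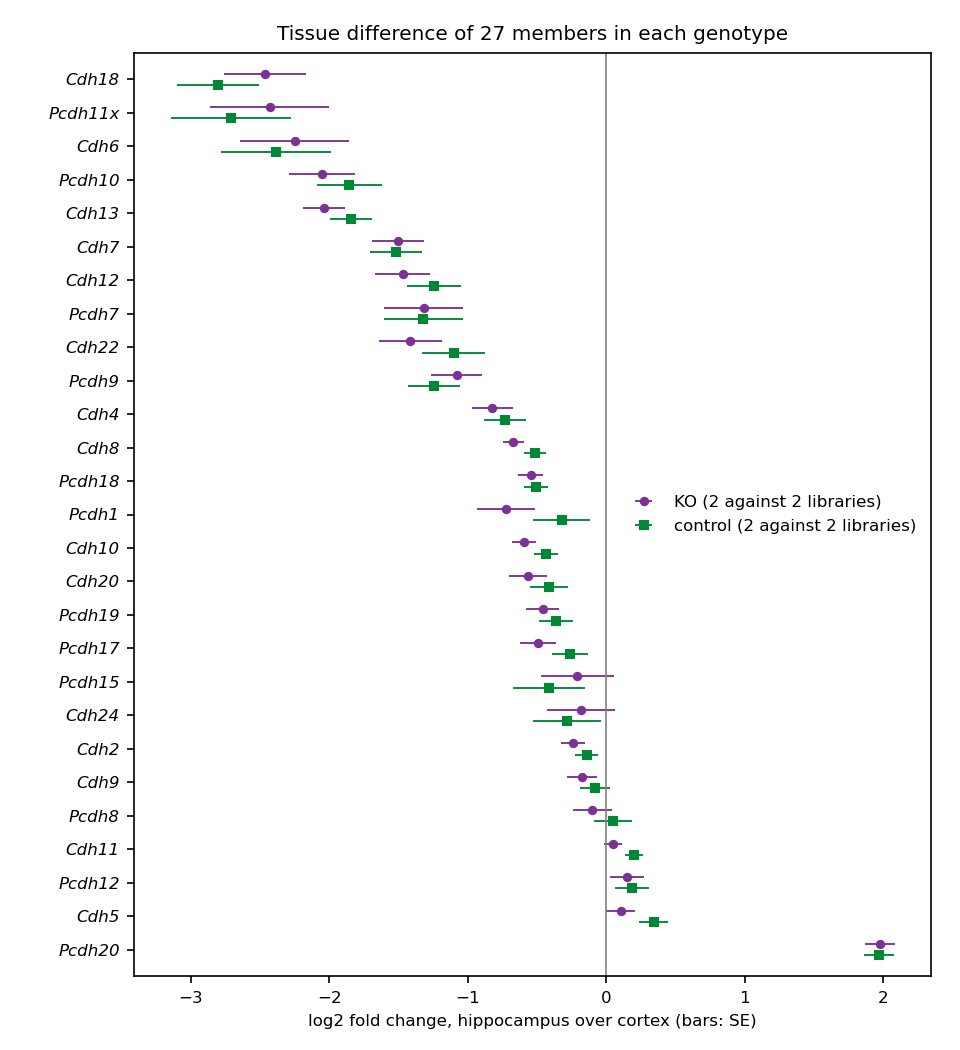
Log2 fold change, hippocampus over cortex, of the 27 members that reached 1 RPKM in a group, with the estimate in KO above that in controls and bars of 1 SE. From Cdh18 down to Pcdh17 both genotypes lie below 0, and Pcdh20 stands alone near 2 in both.

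Members that lie side by side on a chromosome did not share 1 regional pattern. On chromosome 15, Cdh6, Cdh9, Cdh10 and Cdh12 follow each other with no other protein-coding gene between them, and Cdh18 comes 1 gene later. Cdh6 and Cdh18, at the ends, had the largest falls of this run, while Cdh9 between them did not pass. On chromosome 14, Pcdh20 and Pcdh9 are direct neighbours in the order of protein-coding genes, with Pcdh17 2 genes away on the other side and Pcdh8 1 gene beyond that. Here Pcdh20 was higher in hippocampus by 1.98 on the log2 scale, Pcdh9 and Pcdh17 were lower at -1.16 and -0.38, and Pcdh8 did not pass at -0.026. On chromosome 8, Cdh8 was lower. Its neighbours Cdh11 and Cdh5 were called higher by only 1.09-fold and 1.17-fold, and both calls were lost with DESeq2. On chromosome 3, Pcdh10 and Pcdh18, with 1 gene between, were both lower, at -1.96 and -0.53. Other members also lie side by side, such as Cdh7 and Cdh19 or Cdh26 and Cdh4, and are not shown. Gene order is from GENCODE M21, and only the order was used because the authors' build was mm9.

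**Figure D3:**
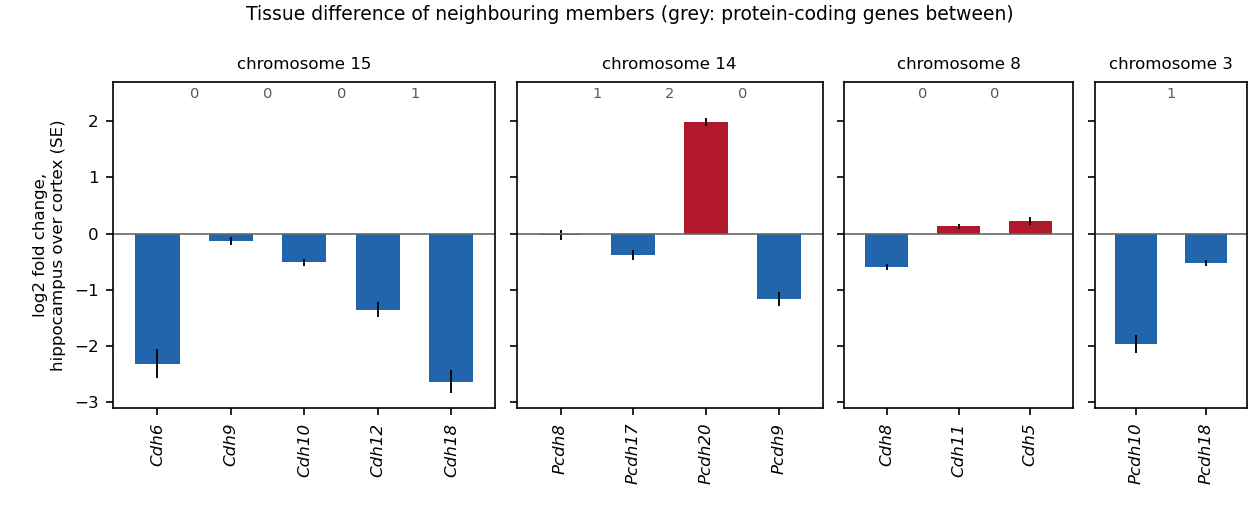
Log2 fold change, hippocampus over cortex over both genotypes, with bars of 1 SE, for 4 runs of members in their order along a chromosome. Grey figures count the protein-coding genes between neighbours, and on chromosome 14 the tall positive bar of Pcdh20 stands beside the negative bar of Pcdh9.

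The second comparison asked whether loss of Srrm4 function goes with a change in the amount of these transcripts. None of the 34 members passed in hippocampus, where 0.0248% of all genes did, in cortex, where 0.0186% did, or over both tissues, where 0.0621% did, by edgeR. The test of a different KO effect in the 2 tissues called no member and 0% of all genes. DESeq2 and limma also called 0 members in each. At an unadjusted p under 0.05, edgeR had 4 members in hippocampus, 0 in cortex, 4 over both tissues and 0 for the difference between tissues, against 614, 183, 713 and 158 of all 16111 genes. DESeq2 had 3 in hippocampus and 2 over both tissues, and limma on log2(RPKM + 1) had 2 and 4. These counts concern whole genes and do not measure splicing.

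The intervals show what size of change these libraries could hold. Among the 27 members that reached 1 RPKM, the log2 fold change, KO over control, lay between -0.37 and 0.30 in hippocampus, between -0.30 and 0.16 in cortex and between -0.23 and 0.23 over both tissues. The median standard error was 0.10 over both tissues. Pcdh11x and Cdh6 were the least certain, with 95% intervals over both tissues that ran down to -0.66 for Pcdh11x and up to 0.80 for Cdh6. For Cdh2 the interval was -0.13 to 0.12 and for Cdh8 it was -0.13 to 0.12.

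The members with the smallest p over both tissues were Cdh9, Cdh11, Cdh15 and Pcdh12. For Cdh9, whose values are given above, both KO libraries lay below both controls in hippocampus and in cortex, with a log2 fold change of -0.23 (SE 0.071, unadjusted p = 0.0108, edgeR adjusted p = 1.000). Cdh11 and Cdh15 had the same order of libraries, with -0.13 (SE 0.048, unadjusted p = 0.0240, edgeR adjusted p = 1.000) and -0.26 (SE 0.10, unadjusted p = 0.0298, edgeR adjusted p = 1.000). These 3 of 34 members compare with 6.32% of all genes whose KO libraries lay beyond the controls in the same direction in both tissues. Pcdh12 had -0.18 (SE 0.079, unadjusted p = 0.0485, edgeR adjusted p = 1.000) and its cortex libraries overlapped, and none of the 4 held after adjustment. At an unadjusted p under 0.05 in hippocampus alone, Cdh10 joined Cdh9, Cdh11 and Cdh15, at a log2 fold change of -0.20 (SE 0.085, edgeR adjusted p = 0.992).

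The signs of the KO differences were also counted, without a test. In hippocampus 24 of 34 members had a negative log2 fold change, against 51.4% of all genes, in cortex 17 of 34, against 50.3%, and over both tissues 25 of 34, against 51.8%. The median was -0.13 in hippocampus and -0.00064 in cortex over the members, and -0.0043 and -0.00057 over all genes. Members are not independent of each other, and hippocampus KO replicate 1 is the library with the high mitochondrial share. The 8 interneuron markers also had a median of -0.43 between KO and control in hippocampus, with sums of 267.8 and 310.5 CPM in KO and 331.4 and 386 CPM in controls. Of them 6 were at an unadjusted p under 0.05, none was called by edgeR and 2 were called by DESeq2. The 8 choroid plexus markers had a median of -0.63 there, with 3 at an unadjusted p under 0.05 and none called. The part of these cell types in the members' signs was not tested. Within replicate number 1 and within number 2, 18 of 34 members had the same sign of the KO difference over both tissues, against 49.1% of all genes. The Y-linked sums given above, which follow the share of male RNA, differ between KO and control replicate 2. In replicate 2 the KO difference of every member therefore also runs beside a difference in sex. That part was not tested. Among the members are the X-linked Pcdh19 and Pcdh11x. Their log2 fold changes over both tissues were -0.11 (SE 0.080, unadjusted p = 0.187, edgeR adjusted p = 1.000) and -0.029 (SE 0.28, unadjusted p = 0.919, edgeR adjusted p = 1.000). Pcdh20, the member with the large regional difference, had -0.12 (SE 0.068, unadjusted p = 0.114, edgeR adjusted p = 1.000) between KO and control.

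**Figure D4:**
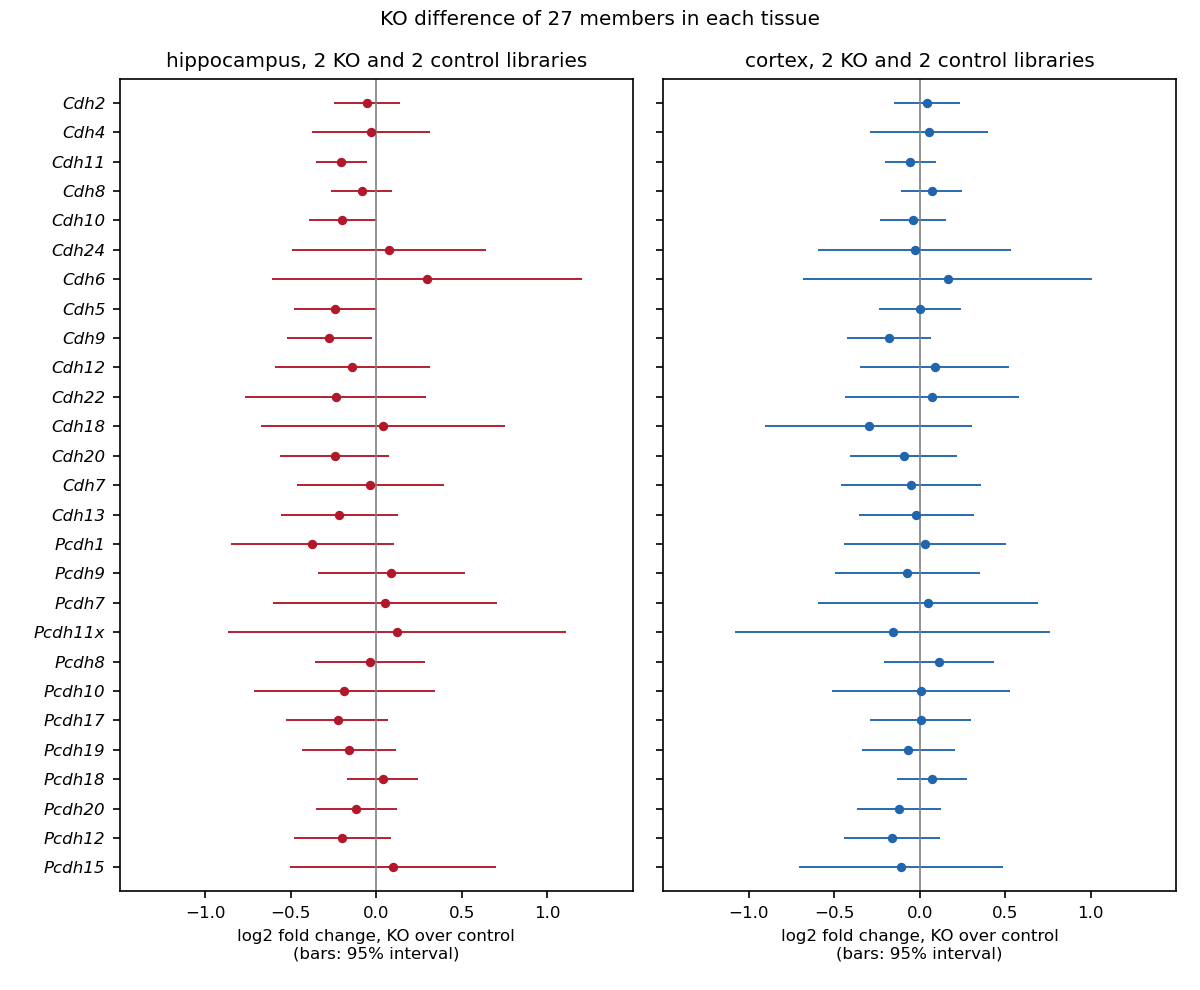
Log2 fold change, KO over control, with 95% intervals, of the 27 members that reached 1 RPKM, in hippocampus on the left and cortex on the right. Every estimate lies between -0.37 and 0.30, and the widest intervals belong to Cdh6 and Pcdh11x.

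Genes that work with cadherins were set beside the members. Of 35 catenins and junction partners, 33 were tested, and none passed between KO and control in hippocampus, in cortex or over both tissues by edgeR, DESeq2 or limma, with 1, 1 and 1 at an unadjusted p under 0.05 by edgeR. Between regions over both genotypes 9 of them were higher in hippocampus and 11 lower, against 29.0% and 25.0% of all genes, with a median log2 fold change of -0.073. Ptprk and Ptprm, receptor phosphatases that bind cadherins, were lower, at -1.15 (SE 0.062) and -1.17 (SE 0.079). Pkp2, a plakophilin of desmosomes, was higher at 1.70 (SE 0.096), and Ctnna1, an alpha-catenin that links cadherins to actin, was higher at 0.74 (SE 0.053), with edgeR adjusted p between 5.94e-07 and 3.40e-06 for the 4.

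Among 15 partners of delta-protocadherins, all tested, none passed between KO and control by the same 3 tools, with 0, 0 and 1 at an unadjusted p under 0.05. Between regions 3 were higher and 5 lower in hippocampus over both genotypes, 8 of 15 in all, against 54.1% of all genes. Cyfip1 and Wasf2 of the WAVE complex were higher, at 0.58 (SE 0.047) and 0.59 (SE 0.050), and Dab1 and Abi2 were lower, at -0.52 (SE 0.047) and -0.51 (SE 0.051). Of 26 further genes of the cadherin superfamily 22 were tested, with 5 higher and 7 lower in hippocampus, against the same 29.0% and 25.0% of all genes. Between KO and control none was called by the 3 tools, with 1, 0 and 1 at an unadjusted p under 0.05. Celsr1, of planar cell polarity, was higher at 1.36 (SE 0.081), and Cdhr1, a protocadherin of photoreceptors, was lower at -1.98 (SE 0.16). Of 23 clustered protocadherins 22 were tested, with 4 lower, against 25.0% of all genes, and none higher in hippocampus, while DESeq2 called 8 and limma on log2(RPKM + 1) called 2. Between KO and control none was called by the 3 tools, with 1, 0 and 1 at an unadjusted p under 0.05. Since their isoforms share exons, single clustered genes are not named.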

How the data were processed

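Messenger RNA of 4 groups was sequenced from TruSeq libraries, per the labels' protocols, with Bowtie and build mm9 named in the submitters' processing notes; the counting rule, its strand setting and the annotation were not stated in any source used here. The deposited tables hold whole-number read counts per Ensembl gene ID and an RPKM value made by the authors; blank count cells were read as 0 and 1114 text cells in the RPKM column as missing. The 12 samples share 8 tables, because runs 1 and 2 of replicate 1 are in 1 table, which was used as 1 library. Of 22667 gene IDs, 20759 matched symbols through the gene name table supplied. From the counts, edgeR 4.0.16 in R 4.3.3 (glmQLFit, glmQLFTest, TMM scaling) tested 16111 genes that passed filterByExpr (minimum count 10, minimum total 15) over all 8 libraries. Contrasts within a genotype or tissue, and their difference, came from a fit of group means, and those over both from an additive fit. P-values were two-sided and adjusted by Benjamini-Hochberg over all genes tested, at 0.05, and the standard error was the log2 fold change divided by the square root of F. The procedure was tested on simulated data. DESeq2 1.42.0, limma 3.58.1, other filters and scalings, a replicate block and each library left out were tried. Intervals cover 95%. Named are members with a mean of at least 5 RPKM, or of at least 1 RPKM and a passing contrast, Cdh5 and Pcdh12; other members were added with their ranges, Cdh9 and Cdh15 with all values after these were seen. Members and lists were chosen with earlier results of these data known. Some marker genes are not reported here.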

Additional observations from a re-analysis of the deposited data

How the results depend on the processing

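Every setting tried called 0 members between KO and control in hippocampus, in cortex, over both tissues and for the difference between tissues, by edgeR, DESeq2 and limma, and leaving out each library in turn gave 0 to 0 in each. Over both genotypes the regions differed for 26 members, for 22 to 25 under the other scalings, filters and tools and for 20 to 24 with a library left out. In KO the 21 members became 19 to 22 under the other scalings, filters and tools, and in controls the 21 became 17 to 21. With a library left out, 1 library stood in its group. Fewer of all genes then passed over both genotypes and in the genotype of that library, and member calls were lost as given above. Of the 5 members called higher over both genotypes, DESeq2 called Pcdh20 only. Of the 21 called lower, Cdh2 was lost with limma. Among the 25 named members, the direction of the regional difference turned for 2 uncalled ones. The regional directions of Cdh3, Cdh9, Cdh19, Cdh26 and Pcdh15 were not followed across the settings. Pcdh8 had log2 fold changes over both genotypes of 0.054 with limma on log2(RPKM + 1), 0.055 on log2(RPKM + 0.1) and 0.079 without hippocampus KO replicate 1. In controls it had -0.031 without cortex control replicate 2, and in KO 0.12 without hippocampus KO replicate 1, although without hippocampus KO replicate 2 it was called lower at -0.37 (edgeR adjusted p = 0.0139). Leaving out each library gave -0.12 to 0.079 for Pcdh8 over both genotypes. Cdh24 had 0.13 in KO without cortex KO replicate 2, and -0.45 to 0.13 over the libraries left out. The cause was not tested. With limma on log2(RPKM + 0.1) the median of all genes shifted to 0.11 over both genotypes, with 3040 of 8804 called genes lower in hippocampus, against 4033 of 8712 in the edgeR fit, and the members split into 20 lower and 5 higher.

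Same-numbered libraries of different groups deviated together with correlations of 0.099 to 0.36 over the 6 pairs of groups, with the highest, 0.36 and 0.32, between the regions of KO and of controls. The labels do not say whether a number marks a shared embryo or day, 1 pair was under 0.1, and the numbers were not used to pair samples in the results above; whether same-numbered libraries of a genotype share an embryo is not known. Y-linked sums of hippocampus and cortex were 49.8 and 25.4 CPM in KO replicate 1 and 0.41 and 0.32 CPM in KO replicate 2. In controls they were 39.6 and 35.3 CPM in replicate 1 and 148.1 and 144.1 CPM in replicate 2. A replicate block set number 1 against number 2 alike in all groups, and a pairing of regions within a genotype was not fitted. This block moved the member counts to 28 over both genotypes, 24 in controls, 22 in KO and 0 in every comparison of KO with control. The calls over all 16111 genes rose too, from 8712 to 10007 over both genotypes. They rose from 5464 to 7053 in controls and from 6442 to 8151 in KO. With the replicate block Cdh24 was called lower over both genotypes (log2 fold change -0.23, edgeR adjusted p = 0.0180) and in controls (-0.31, adjusted p = 0.0388). With 2 libraries a group, the 95% intervals of Cdh6 and Pcdh11x between KO and control stayed wide.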

Other observations

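The replicate number went with the level of some members in every group. RPKM was higher in replicate 1 than in replicate 2 in all 4 groups for 9 of the 29 members above 0.1 RPKM in every replicate 2 library, namely Cdh4, Cdh6, Cdh20, Pcdh7, Pcdh9, Pcdh10, Pcdh11x, Pcdh15 and Pcdh18. The ratio was 1.18 to 2.55 for Cdh6, 1.33 to 1.61 for Pcdh7, 1.24 to 1.52 for Pcdh15 and 1.04 to 1.10 for Pcdh18. Cdh9, Cdh23 and Cdh24 were lower in replicate 1 in all 4 groups, at 0.868 to 0.994, 0.846 to 0.923 and 0.625 to 0.819 of replicate 2. Replicate 1 was also the deeper library of each group. The share of all genes with the same order in all 4 groups was not counted, so these counts do not set the members apart.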
